A study of Mus musculus with 25 samples.

Results

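The day 17 set comprised 109 probe sets of 108 genes whose signal in mouse back skin was higher on postnatal day 17 than on days 14 and 23. They were found among 12488 probe sets on the array, 10833 of them non-control probe sets with 1 annotated gene symbol. A probe set reports 1 transcript, or a few related ones, through several short oligonucleotides, and its intensity is given in arbitrary units on a linear scale. After values below 32.7 units had been raised to that floor, a member needed a day 17 mean of at least 200 units, at least 2 times its day 14 mean and at least 1.5 times its day 23 mean. Genes whose symbols start with Krt, Col, Myh, Tnn, Mmp, Ucp, Ifi or Psmb were left out, which removed 6 of 115 probe sets, those of Krt12, Krt17, Krtap6-3, Col9a1, Mmp11 and Ucp1. Foxc2 entered with 2 probe sets, and every other gene entered with 1.

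The study followed total RNA of whole back skin on 25 arrays, each labelled as 1 mouse. There were 3 arrays for each of days 1, 6, 14, 17 and 23, for 9 weeks and for 5 months, and 4 arrays for 1 year. The groups differed in age alone as far as the labels say. The sources used here do not give strain, sex, husbandry, any treatment or whether mice were littermates, so p-values measure the spread between these samples.

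Hair follicles pass through growth, regression and rest. In regression (catagen) the lower follicle is lost by programmed cell death, the hair shaft is no longer made and the dermal papilla is drawn up towards the bulge, where stem cells remain. In mouse back skin the first regression runs in near synchrony over the body in the third postnatal week, after a first growth phase, and the layer of fat under the dermis thins as growth ends. Whole skin also holds epidermis, dermis, fat, muscle, vessels, nerves and immune cells, so a difference in signal may reflect either more cells of a type or more RNA in each, and these cannot be told apart here.

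Hair shaft transcripts set days 14 and 17 apart from day 23. A score over 21 hair keratin and keratin-associated genes (mean log2 intensity) lay between 13.4 and 13.61 on day 14, between 12.9 and 13 on day 17, and between 7.14 and 7.34 on day 23. On day 6 it lay between 12.57 and 12.88, so the score alone does not place day 17 in regression. Markers of cornifying epidermis (Krt1, Krt10), dermis (Col1a1, Dcn), skeletal muscle (Acta1) and fat (Adipoq) were above the floor on all 25 arrays, whereas the Krt14 probe set was at the floor on 21 of them. The female transcript Xist and the Y-linked Eif2s3y were both above the floor on every day 17 and day 6 array and on day 1 mice 1 and 3, and only 1 of them was on each other array. The sources used here do not say whether RNA was pooled, and the part of sex in the results was not tested.

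Most of the set had its highest mean on day 17, and day 1 was the age most like it. The day 17 mean was the highest of the 8 ages for 82 members, whereas day 1 was the highest for 24 and 9 weeks for 3, so a day 17 peak held for most members but not for all. Of the other 7 ages, the highest was day 1 for 82 members, followed by 9 weeks for 7, day 14 and 5 months for 6 each, day 23 and 1 year for 3 each, and day 6 for 2. Only 11 members had a day 17 mean at least 2 times that of each other age, and 32 reached 1.5 times. The middle member of each array lay between 306.6 and 350.8 units on day 17 and between 278.1 and 284.8 units on day 1. The corresponding medians were 129.8 to 161.2 on day 6, 124.6 to 156.9 on day 14, 131.5 to 171 on day 23, 139.5 to 177.4 at 9 weeks, 144.7 to 190.4 at 5 months and 116.1 to 152.8 at 1 year. Thus days 1 and 17 stood apart from the other 6 ages on every array. For day 17 against days 14 and 23 this was fixed by the rule. Choosing members by high day 17 means also favours a day 17 peak over the remaining ages. The values of days 1 and 6 and of the adult ages did not enter the rule.

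**Figure D1:**
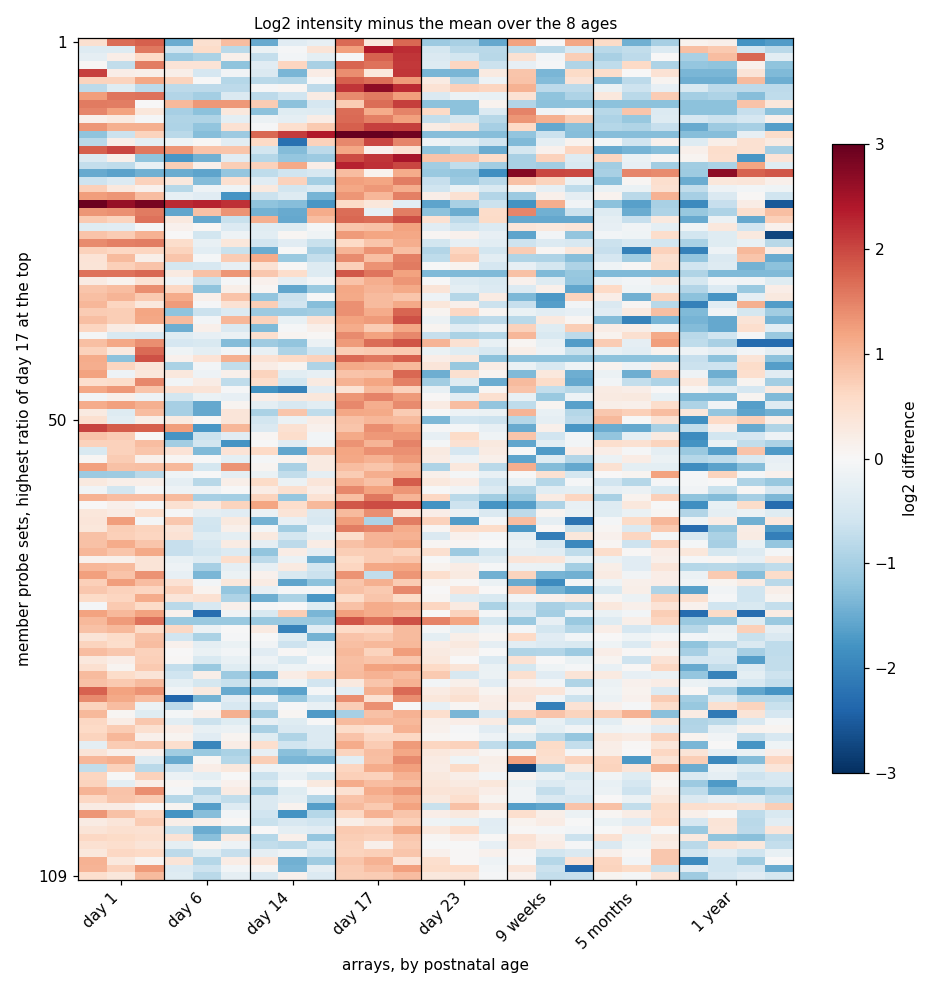
The heat map shows the 109 member probe sets as rows, ordered by the ratio of the day 17 mean to the larger of the day 14 and day 23 means, and the 25 arrays as columns grouped by age, with colour for log2 intensity minus the mean over the 8 ages. The day 17 columns are red by the choice of members, and the day 1 columns are the other ones that are red for most rows.

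The lower part of the whole signal range moved with these medians. The lower quartile of all non-control probe sets was 61.4 to 64.8 units on day 1 and 59.1 to 61.8 on day 17, against 36.8 to 56.2 on the other arrays. The highest intensity on an array was between 22033.5 and 36049 units on days 1, 17 and 23 and at 5 months, and between 41699.8 and 78877 at the other ages. Day 23 and 5 months shared that lower top with days 1 and 17 but had low member medians. The part of these array properties in the members' pattern was not tested, but the count of members under other scalings was measured. Quantile normalization left 69 probe sets past the thresholds, 64 of them shared with the 109, and scaling all arrays to 1 median left 47, all of them shared. Over these 2 scalings, the floor at the 40th percentile or geometric means changed 1 at a time, and each day 14, 17 or 23 array left out in turn, 32 members were kept in all 13 settings. They include both Foxc2 probe sets, Vamp1, Slain1, Tradd, Lep, Sncg, Pax5, Ccl1, Eda and Grid1. By contrast, 45 members were kept under neither of the 2 scalings. Among these were Bmpr1a, Cyp4a12b, Nmur1, Ms4a1, Ighm, Elane, Maz, Gpr182 and Mc3r.

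**Figure D2:**
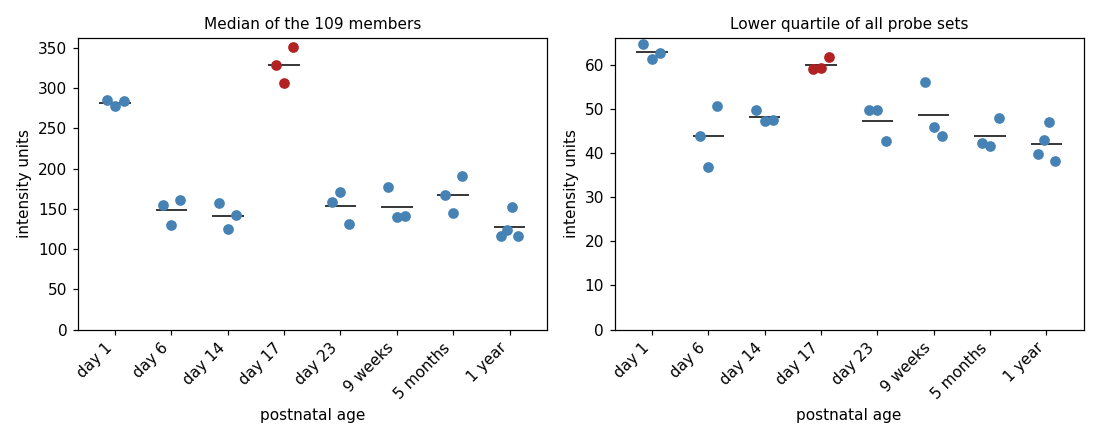
Each point is 1 array, with lines for the mean of an age and red for day 17, and intensity units on both vertical axes. The median of the 109 members (left) was 306.6 to 350.8 units on day 17 and 278.1 to 284.8 on day 1, and the lower quartile of all probe sets (right) was also highest at these 2 ages.

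The members were mostly of low signal and unequal in spread. The day 17 mean ranged from 202.7 to 4681.4 units with a median of 326.7, and it was under 300 units for 51 members and 1000 units or more for 15. The ratio of the day 17 to the day 14 mean had a median of 2.43 (2 to 9.48), and that to the day 23 mean a median of 2.18 (1.51 to 29.99), as the rule requires. All 3 day 17 arrays lay above all 3 day 14 arrays for 100 members, where 30.1% of the 8835 probe sets tested did, and above all 3 day 23 arrays for 99, where 28.6% did. These counts follow from the rule and carry no test. The coefficient of variation among the day 17 mice had a median of 15.8% and ran from 1.2% to 64.5%, and was widest for Mc3r, Prss32 and Ddx25. Mc3r, a melanocortin receptor, measured 68.2, 235.8 and 305.6 units on day 17, so its day 17 mean rested on 2 of the 3 mice.

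Values near the thresholds differed little across them. Yap1 (202.7 units on day 17), Gpr182 (203) and Mc3r (203.2) were just inside the level threshold, and Idnk (198), Nkx1-2 (197.8) and Rpe (197) just outside. Elane and Myl6 (ratio 2 to day 14 for each) and Thap12 (2.01) were just inside the day 14 ratio, and Brd1 (2), Gm13205 (1.99) and Cga (1.98) just below it, with Brd1 below 2 before rounding. H2-M10.1 (1.51 to day 23), Igkv4-68 (1.52) and Crx (1.55) were just inside the day 23 ratio, and Cxcl12 (1.48), Klf1 (1.48) and Prp2 (1.47) just outside.

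Probe sets with a suffix letter were more frequent among the members than on the array, although most members had a plain name. Suffix letters in a probe set name mark designs with relaxed probe selection, or probes shared by several transcripts or a gene family. Of the members, 63 (57.8%) had a plain name, against 78.97% of all probe sets with 1 symbol. The letter r, which marks such a relaxed rule, was carried by 28 members (25.7%), against 6.82% of all. The part of probe design in the day 17 pattern was not tested.

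Transcription factors and chromatin proteins gave 15 member probe sets of 14 genes, grouped with their values in view. Their ratios of day 17 to day 14 ranged from 2.17 to 9.48 with a median of 2.8, and 13 of the 15 had their highest mean on day 17. The highest 2 belonged to Foxc2, a forkhead factor of mesenchyme, lymphatic vessels and fat.

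Foxc2 was the member seen by 2 probe sets that both passed the rule. Probe set 102800_at gave 60.9, 49 and 51.1 units on day 14, 425.2, 487.5 and 612.9 on day 17, and 196.7, 196.6 and 159.8 on day 23. Probe set 162016_f_at gave 55.4, 58.7 and 32.7 on day 14, 252.4, 366.7 and 269.7 on day 17, and 76.2, 92.6 and 89.1 on day 23. In both, every day 17 mouse lay above every mouse of the other ages, and the ratio to the next highest age, day 23, was 2.76 and 3.45.

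Pax5, the factor that sets B cell identity, measured 60.5, 118.5 and 38.9 units on day 14, 254.2, 233.3 and 329.4 on day 17 and 57.7, 118.5 and 48.8 on day 23. No other array reached the lowest day 17 value, and the nearest was day 1 mouse 3 with 219.8. Scx, a basic helix-loop-helix factor of tendon and other force-bearing connective tissue, measured 735.8, 757 and 804.8 units on day 14, 1293.5, 1768.4 and 1933.4 on day 17, and 953, 1229.2 and 907.8 on day 23. The Scx groups did not overlap among these 3 ages, but mice of day 1 (up to 1334.9) and 5 months (up to 1722.1) reached into the day 17 range.

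Maz and H1f10 showed the opposite order to Foxc2, with day 1 far above day 17. Maz, a zinc finger factor, averaged 209.8 ± 79.2 units on day 17 (SD, n = 3), and its 3 day 1 mice gave 463.9, 536 and 404.8. H1f10, a linker histone, averaged 227.6 ± 66.7 units on day 17 (SD, n = 3), 0.17 times its day 1 mean. The H1f10 day 6 mice, at 905.9, 943.6 and 880.6, also lay far above day 17, so for these genes day 17 was above days 14 and 23 but not the highest age. Prrc2a and Bag6, neighbours of each other in the major histocompatibility region and no transcription factors, had ratios of day 17 to day 1 of 0.6 and 0.64.

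Receptors gave 17 members with day 17 means from 203 to 1374 units, and 13 of them had their highest mean on day 17. Lgr5, a Wnt-potentiating receptor that marks cycling stem cells of the lower bulge and hair germ, measured 129.3, 32.7 and 53.8 units on day 14, 129.3, 242.2 and 320.5 on day 17, and 32.7, 32.7 and 82.3 on day 23. The Lgr5 day 14 and day 17 groups met at 129.3 units. Its day 1 values (225.8, 219.2 and 77.3) and day 6 values (149.4, 187.6 and 188.4) reached into the day 17 range, as did 1 year mouse 3 at 138.5, and all 5 month mice were at the floor.

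Bmpr1a, a type I receptor for bone morphogenetic proteins needed for hair shaft differentiation, measured 247.4, 275.5 and 308.4 units on day 14, 569.5, 526.4 and 615.7 on day 17, and 296.8, 230.2 and 285.1 on day 23. Every day 17 mouse exceeded every mouse of all other ages, of which the highest was a day 1 mouse at 430.1. Fzd7, a Wnt receptor, averaged 250.7 ± 23.2 units on day 17 (SD, n = 3), and its day 1 mice (228.3, 267.3 and 220.5) covered the same range. Nmur1, a receptor for neuromedin U, measured 237.1, 209 and 171.1 on day 17 and between 40.8 and 84.6 on days 14 and 23.

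Ligands gave 7 members, 6 of them with their highest mean on day 17. Eda, the tumour necrosis factor family ligand that directs follicle formation (named here after its values were seen), measured 119.9, 104.8 and 117.4 units on day 14, 398.9, 311.3 and 390.3 on day 17 and 175.1, 279.7 and 65 on day 23. Its day 1 values, 318.4, 343.9 and 309.8, overlapped with the day 17 values. A second tested Eda probe set (93393_at) averaged 412.2, 361.1 and 367.4 units on days 14, 17 and 23, without a day 17 rise. Fgf4, a growth factor known for early embryo and limb, averaged 701.1 ± 25.4 units on day 17 (SD, n = 3), and day 1 reached 639.4. Ccl1, a chemokine, averaged 446.1 ± 49.1 units on day 17 (SD, n = 3), and every other mouse lay below the lowest day 17 value of 389.5.

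Fat genes gave Lep and Sncg, of 28 measured genes in an adipocyte list. Lep encodes leptin, the hormone by which fat cells signal energy stores, and Sncg encodes gamma-synuclein, which is abundant in white fat cells as well as sensory neurons. In the whole list, 15 of 28 genes passed the limma threshold as higher on day 17 than day 14 and 1 as lower, where 17.8% and 12.4% of all probe sets did. On day 23, 18 of the list's genes were higher and 4 lower than on day 17, with 19.5% and 18.8% of all, so most of the list went on to higher values where the member probe sets of Lep and Sncg, by the rule, did not. The second Sncg probe set (104280_at) averaged 356 units on day 17, 369.2 on day 23 and 602.1 at 9 weeks. Adipoq, a marker of mature fat cells, averaged 1561.9 units on day 14, 3528.7 on day 17 and 6664.5 on day 23.

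The Lep member measured 134.7, 152.3 and 164.7 units on day 14, 436.2, 245.6 and 495.7 on day 17 and 105.4, 101.6 and 64.5 on day 23. Its highest values came from adults, with 1559.5, 921.3 and 903.9 at 9 weeks, and its day 17 mean was 0.35 times the 9 week mean. The Sncg member measured 693.8, 477.5 and 660.8 units on day 14, 1361.8, 1715 and 1716.4 on day 17 and 889.8, 773.8 and 687.4 on day 23. Only 5 months mouse 3 (1855.2) exceeded the day 17 mice.

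The 3 highest ratios of day 17 to day 23 belonged to Vamp1, Cyp4a12b and Slain1. Vamp1, a vesicle membrane protein of synapses and other secretory cells, measured 263.1, 339.3 and 421.8 units on day 14 and 1399, 949.6 and 593.7 on day 17, and all 3 day 23 mice were at the floor, so its day 17 mean was at least 30.0 times that of day 23. Slain1, a microtubule-associated protein, measured 108.7, 146.9 and 77.2 on day 14, 331.1, 306.2 and 267.2 on day 17, and 32.7, 40 and 32.7 on day 23. Cyp4a12b, a fatty acid omega-hydroxylase, measured 626.3, 403.8 and 542.6 on day 14, 1008.9, 1073.8 and 1081 on day 17, and 79.6, 180.9 and 81.1 on day 23. For all 3 genes day 14 was the next highest age, and day 17 lay above every other array. On day 6, when follicles grow, Vamp1 measured 45.5, 32.7 and 37.5 units, at or near the floor.

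The promoters of Lep, Sncg and Vamp1 are printed here because Lep and Sncg are the fat members and Vamp1 had the highest ratio to day 23. They are RefSeq sequence of build GRCm38.p6, read from 250 bases before to 50 bases after the annotated start, 5′ to 3′ on the gene's strand. Capitals mark matches, on either strand, to the CCAAT box (CCAAT), the GC box (GGGCGG) and the motif of C/EBP factors (TTGCNNAA), which act in fat cells among others. The Lep window is chr6:29059971-29060270 on the plus strand, that of Sncg chr14:34374620-34374919 on the minus strand and that of Vamp1 chr6:125215331-125215630 on the plus strand.
Lep: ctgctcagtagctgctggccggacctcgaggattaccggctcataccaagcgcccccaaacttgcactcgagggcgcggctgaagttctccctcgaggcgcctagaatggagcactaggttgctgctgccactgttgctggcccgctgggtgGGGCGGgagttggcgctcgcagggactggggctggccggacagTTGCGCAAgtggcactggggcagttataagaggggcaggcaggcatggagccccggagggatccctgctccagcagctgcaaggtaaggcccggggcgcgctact
Sncg: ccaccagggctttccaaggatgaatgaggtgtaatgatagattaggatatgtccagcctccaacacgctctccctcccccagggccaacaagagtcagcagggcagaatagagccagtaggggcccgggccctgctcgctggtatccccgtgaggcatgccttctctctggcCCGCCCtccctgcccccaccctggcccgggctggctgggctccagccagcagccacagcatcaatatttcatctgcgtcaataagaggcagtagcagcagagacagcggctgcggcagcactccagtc
Vamp1: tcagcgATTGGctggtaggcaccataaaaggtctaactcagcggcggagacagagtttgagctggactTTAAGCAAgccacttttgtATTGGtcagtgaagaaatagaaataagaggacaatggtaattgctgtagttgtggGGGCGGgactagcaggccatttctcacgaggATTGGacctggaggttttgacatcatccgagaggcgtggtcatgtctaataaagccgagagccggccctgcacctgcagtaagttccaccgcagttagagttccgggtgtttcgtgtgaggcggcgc
Counted from the start site, Lep had a GC box at -98 and a C/EBP match at -55, which reads as a match on both strands. Sncg had a GC box on the minus strand at -78. Vamp1 had CCAAT boxes on the minus strand at -244, -163 and -77, a GC box at -108 and a C/EBP match on the minus strand at -182.

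Across the set these motifs were about as frequent as in the promoters of all genes on the array. Of 108 member genes, 82 had at least 1 promoter in the table, with 108 promoters of 300 bases in all. A CCAAT box was in 34.3% of member promoters and 37% of the 8412 promoters of array genes, and a GC box in 57.4% and 57%. The C/EBP motif was in 9.3% and 9.5%, a TATA box (TATAAA) in 11.1% and 10%, and an E-box (CACGTG) in 10.2% and 9.5%. The GLI motif (TGGGTGGTC), bound by effectors of hedgehog signalling, was in 0 of 108 member promoters and 0.1% of the others. The median GC content was 58.8% against 59.7%. A match describes these letters and does not show that a factor binds.

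Genes of immune cells gave 14 members, grouped after their values were seen. Of a B cell list, 4 of 7 measured genes passed the limma threshold as higher on day 17 than on day 14 and 0 as lower. Among all probe sets, 17.8% passed as higher and 12.4% as lower. Genes of the day 17 set made up 3 of the 7, so the B cell count is not independent of the rule. Besides Pax5, Ms4a1 encodes the B cell surface protein CD20, and measured 387.7, 226.9 and 331.5 units on day 14, 535, 477.1 and 908.5 on day 17 and 323.6, 300.8 and 170.5 on day 23. Ighm, the heavy chain of immunoglobulin M, measured 51.6, 178.2 and 58.9 units on day 14 and 221.7, 219.5 and 169.1 on day 17, so the groups overlapped. The second Ms4a1 probe set (99446_at) averaged 83.8, 128.1 and 209.4 units on days 14, 17 and 23, without the lower day 23 level of its member. An Ighm probe set (93583_s_at) averaged 587.9, 918.7 and 1037 units on these days and 2003.1, 2255.9 and 2677 at 9 weeks, 5 months and 1 year. Cd79a, a B cell receptor component and no member, averaged 125.9 units on day 14, 318.3 on day 17 and 234.7 on day 23.

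Markers of other white cells did not share 1 pattern. Cd4, the co-receptor of helper T cells, measured 322.9, 68.5 and 90.5 units on day 14 and 399, 276.4 and 425.3 on day 17, whereas the T cell receptor component Cd3g averaged 36.5 and 41.4 units, near the floor. Cd3e, a component of the same receptor, measured 67.9, 54.2 and 65.4 units on day 14 and 88.2, 166.4 and 95.9 on day 17, so its groups did not overlap. In the T and NK cell list, 1 of 7 measured genes passed the limma threshold as higher on day 17 than on day 14. Csf3r, the receptor for granulocyte colony-stimulating factor, averaged 1374 ± 393.4 units on day 17 (SD, n = 3), and Elane, a neutrophil granule protease, 461.7 ± 148.3 (SD, n = 3). The neutrophil protein S100a8 averaged 1394.9 units on day 14 and 742.4 on day 17, the other way. The high Csf3r signal came from its member alone. The other Csf3r probe sets averaged 57 and 33.1 units on day 17, against a floor of 32.7, and were too low to be tested. Of 8 neutrophil genes, 2 were called higher and 2 lower on day 17 than on day 14. Among all probe sets, 17.8% were called higher and 12.4% lower. The neutrophil list held 2 members of the day 17 set and the T and NK cell list 1, so these counts are not independent of the rule. How far the number of white cells in the skin bears on the members was not tested.

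Serine proteases gave 7 members: Prss29, Prss30, Prss32, Ctrb1, Ctrl, Plg and Elane. Ctrb1 and Ctrl are digestive proteases of the pancreas, Plg encodes plasminogen, which is made in liver, and the Prss genes encode trypsin-like enzymes of secretory tissues. Ctrl measured 32.7 units, the floor, on all 3 day 14 mice, 259.3, 223.1 and 265.6 on day 17 and 198.7, 159.6 and 48.6 on day 23, so its day 17 mean was at least 7.62 times that of day 14. Prss29 measured 49.8, 56.2 and 75.4 units on day 14, 134.6, 305.6 and 265.7 on day 17 and 39.9, 32.7 and 32.7 on day 23, and its day 17 mean was 2.72 times that of day 1, the next highest age. Prss30 and Prss32 had day 17 mice below some day 14 and day 23 mice, as in Prss32 with 453.8, 100.9 and 555.9 units on day 17.

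Of the apoptosis list, Tradd was the 1 member. It encodes the adaptor that joins the death domain of tumour necrosis factor receptors to caspase and survival signals. Tradd measured 2256.4, 313.3 and 2404.3 units on day 14, 4046.6, 5922.3 and 4075.3 on day 17 and 1353.5, 1213.7 and 975.5 on day 23, the highest day 17 mean of the set. Its day 17 mice exceeded the mice of every other age, and its spread on day 14 came from mouse 2. In the whole apoptosis list, 5 of 20 measured genes passed the limma threshold as higher and 2 as lower on day 17 than on day 14. Among all probe sets, 17.8% and 12.4% did. Tradd is among the 20, so the apoptosis count is not independent of the rule. Endog, outside that list and named after its values were seen, encodes a mitochondrial nuclease that can cut nuclear DNA in dying cells. It measured 157.5, 124.6 and 59.4 units on day 14, 287.6, 274 and 305.4 on day 17 and 129.6, 179.8 and 165.6 on day 23. Its day 17 mice lay above all others but day 1 mouse 3, at 292.7. A list of regulators of follicle regression had 8 of 20 measured genes higher and 0 lower, and held no member of the set.

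**Figure D3:**
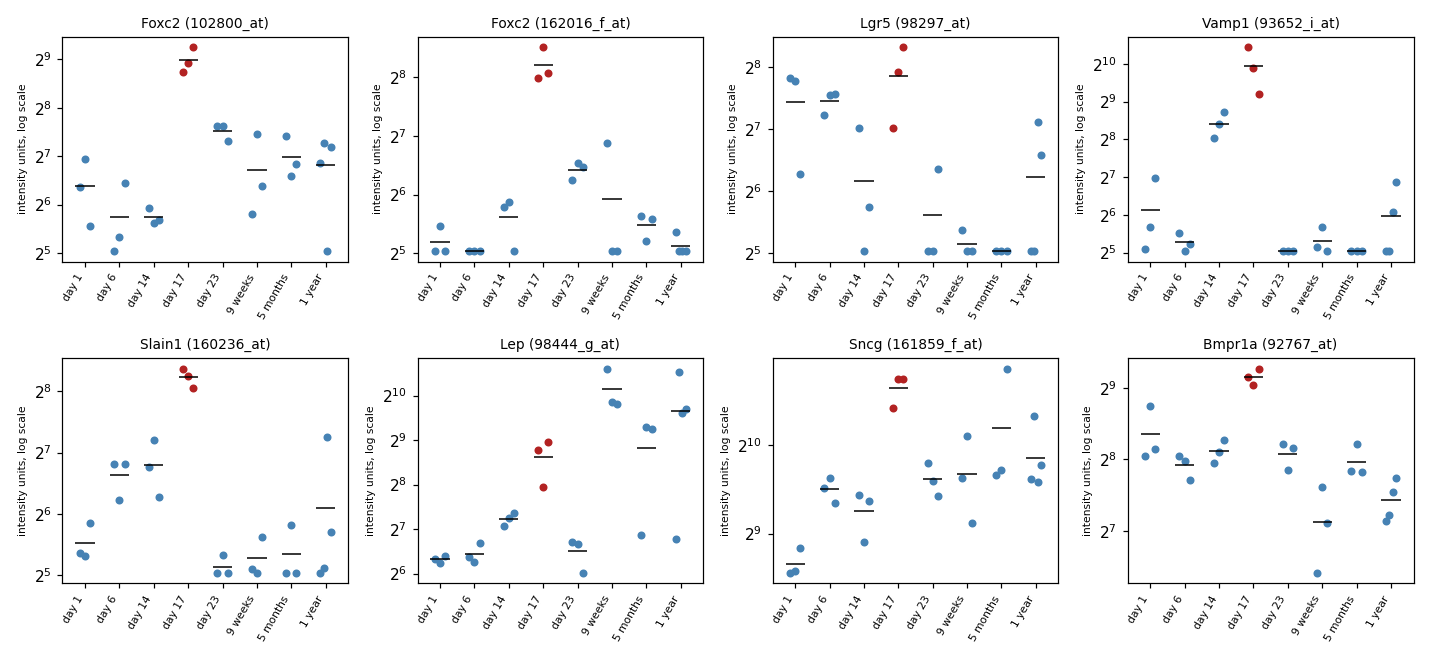
Each panel shows 1 member probe set, with intensity in units on a log scale by postnatal age, 1 point per mouse, a line at the arithmetic mean of the age and red for day 17. Foxc2, Vamp1 and Bmpr1a had every day 17 mouse above every other mouse, whereas Lep was higher in most adults and Lgr5 overlapped with days 1 and 6 and with 1 mouse of 1 year, and met day 14 at 129.3 units.

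Genes of general cell functions were also present, and for several of these a second probe set of the same gene did not share the pattern. Rps4x encodes a protein of the small ribosomal subunit. Its member probe set measured 62.7, 32.7 and 99.9 units on day 14 and 224.4, 106.4 and 373.1 on day 17, while probe set 100780_at of the same gene averaged 23424.9 units on day 14 and 14650.8 on day 17. In the ribosomal protein list, 15 of 19 measured genes were called lower on day 17 than on day 14 and 1 was called higher. Polr2a encodes the largest subunit of RNA polymerase II. Its member averaged 3452.1 ± 116.6 units on day 17 (SD, n = 3), 2.39 times day 14, while its probe set 103054_at changed from 1308.2 to 1399.8 units.

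Such second probe sets were measured for 58 of the 108 genes. Leaving out the Foxc2 pair, 53 of the 98 other probe sets, from 39 genes, were above background on enough arrays to be tested. Their ratio of day 17 to day 14 had a median of 1.09 and ran from 0.63 to 3.08. It was at least 2 for 4 of them and below 1 for 18. Over all tested probe sets with 1 symbol the median was 1.08, and 7.18% reached 2. The 4 that reached 2 belonged to Hic1 (104462_at, 3.08), Rps4x (162498_r_at, 2.32), Slc29a1 (95733_at, 2.13) and Thbd (104601_at, 2.06).

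The probe sets of 1 gene could thus differ in their course. Yap1, an effector of Hippo signalling, had a member ratio of 2.79 and a ratio of 1.01 in probe set 160520_at. Cdh3, P-cadherin of the hair matrix and basal keratinocytes, had 2.21 and 1 (100409_at). Tubb2a, a beta-tubulin, had 5.18 and 0.77 (94835_f_at), and Itgav, an integrin subunit, 2.36 and 0.95 (104386_f_at). Lep had 2.61 and 1.3 (98443_at), and Sncg 2.62 and 1.71 (104280_at). Against day 23 the second Lep probe set had a day 17 ratio of 2.03, whereas that of Sncg had 0.96, without the peak of its member. The oligonucleotide sequences were not used here, so which transcript or part of a transcript each probe set reports cannot be given.

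**Figure D4:**
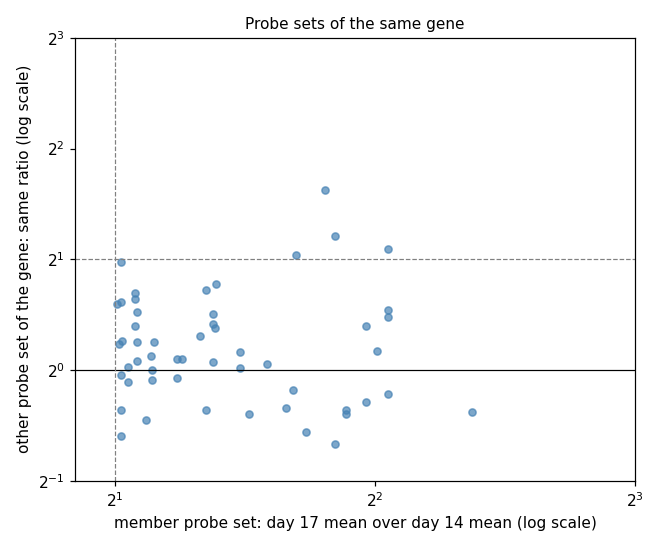
Each point pairs a member probe set (horizontal axis, ratio of the day 17 to the day 14 mean, log scale) with another tested probe set of the same gene (vertical axis, the same ratio, log scale). The members lie at 2 or more by the rule, and 4 of the 53 others reach 2 while 18 lie below 1.

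Days 1 and 6 entered no step of the rule, so their difference could be tested. From day 1 to day 6 the members mostly fell: 46 of 109 passed the limma threshold (Benjamini-Hochberg adjusted p of 0.05 over 8835 probe sets) as lower on day 6 and 2 as higher, which is 42.2% and 1.8%. Of all probe sets tested, 22.5% were called lower and 14.1% higher. The members' median log2 change was -0.83 beside -0.15 over all, and the estimate was negative for 97 of the 109. After quantile normalization 30 members were lower and 2 higher, with medians of -0.54 and -0.01, while 1405 of all 8784 probe sets tested were lower and 1430 higher. After centring of arrays on their medians 31 were lower and 3 higher, with medians of -0.53 for members and 0.15 over all, while 873 of all 8794 were lower and 2382 higher.

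The decrease held in both kinds of probe set. It was called for 20 of 63 members with a plain name (31.7%, against 21.2% of all plain probe sets) and for 26 of 46 with a suffix letter (56.5%, against 27.7%). By role, 9 of the 17 receptors, 6 of the 14 immune genes, 4 of the 4 genes of RNA processing, 3 of the 7 proteases, 2 of the 7 ligands and 2 of the 15 transcription and chromatin probe sets fell. Day 1 arrays also had the highest lower quartile of all probe sets, and its part in this difference was not tested.

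Gcdh, glutaryl-CoA dehydrogenase of lysine breakdown, fell by 2.53 on the log2 scale (SE 0.42, adjusted p 0.00023). It averaged 491.6 ± 84.4 units (SD, n = 3) on day 1 and 99.1 ± 67.3 (SD, n = 3) on day 6. Probe set 160194_at of Gcdh went the other way, from 2202.5 to 3130.9 units (log2 change 0.52, SE 0.16, adjusted p 0.0179), so the direction for this gene depends on the probe set. Ctrl was at the floor on all day 6 mice and at 175.5 ± 40.4 units on day 1 (SD, n = 3), a decrease of at least 2.40 on the log2 scale (adjusted p 0.000358). Grid1, a delta glutamate receptor, went from 285.9, 367.9 and 372.8 units to 65.4, 59.6 and 89, and fell by 2.27 on the log2 scale (SE 0.36, adjusted p 0.000159).

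Gpr182, an atypical chemokine receptor of endothelium, fell by 2.00 on the log2 scale (SE 0.38, adjusted p 0.000798). Slc29a1, a nucleoside transporter, fell by 1.96 (SE 0.44, adjusted p 0.00249), while its probe set 95733_at gave -0.11 (SE 0.2, adjusted p 0.699). The 2 genes that rose were Slain1, by 1.11 (SE 0.31, adjusted p 0.0103), from 46 ± 9.9 to 99.6 ± 21.6 units, and Sncg, by 0.84 (SE 0.2, adjusted p 0.00444), from 405.1 ± 45.8 to 723.1 ± 72.5 units (SD, n = 3 each). Sncg rose in its second probe set too, by 2.38 (104280_at, SE 0.3, adjusted p 2.43e-05).

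Many of these values lie low. With the floor at 127.8 units the changes of Grid1, Gpr182, Slc29a1 and Ctrl were -1.41, -0.77, -0.98 and -0.43, still past the threshold, whereas Slain1 no longer rose (0). Every Slain1 value of days 1 and 6 lay below 127.8 units. Slain1 was above that level on enough arrays to be tested only with its day 17 arrays counted. Those arrays also made it a member, so its place in this test was not independent of the rule.

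For 20 genes whose member changed between days 1 and 6, 27 other probe sets were tested. Of these 8 were called in the member's direction, 4 in the opposite direction and 15 were not called, and 18 of 27 had the same sign. The 4 opposite ones belonged to Gcdh, Tubb2a, Cryl1 and Smarcd2. A second probe set thus carried the call for Bphl, Bag6, Sf3a2, Itgav, Thbd, Smarcd2 and Sncg in at least 1 case.

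**Figure D5:**
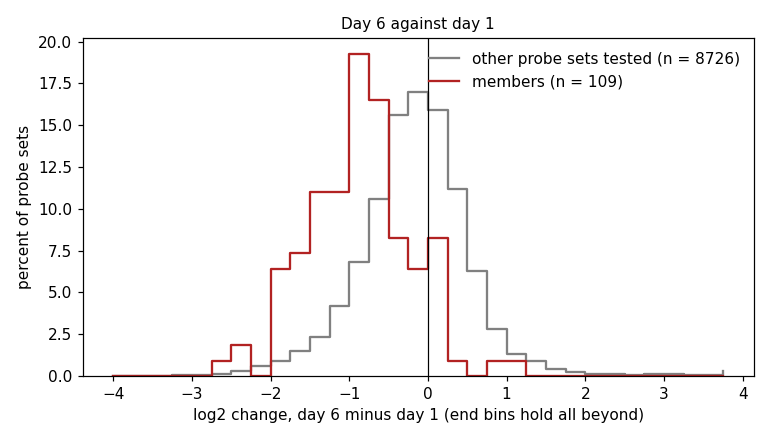
The outlines show the percent of probe sets (vertical axis) by log2 change from day 1 to day 6 (horizontal axis, day 6 minus day 1) for the 109 members in red and the other tested probe sets in grey. The members lie to the left, with a median of -0.83 beside -0.15 over all probe sets tested.

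Adult skin at 9 weeks was set against growing skin on day 6, a comparison that shares the day 6 arrays with the one above. The hair shaft score was 7.26, 7.17 and 12.09 on 9 weeks mice 1, 2 and 3, beside 12.57 to 12.88 on day 6. Mouse 3 at 9 weeks thus also had high hair shaft transcripts. The set's median was near that of all probe sets, at -0.05 beside -0.07. Of the members, 17 members (15.6%) were called lower at 9 weeks and 8 (7.3%) higher, against 23.2% and 18.2% of all probe sets. Single genes moved far. Lep rose by 3.65 on the log2 scale (SE 0.28, adjusted p 1.8e-08), from 82.4, 76.9 and 102.7 units to 1559.5, 921.3 and 903.9, and its second probe set 98443_at rose by 1.38 (SE 0.35, adjusted p 0.00387). In the adipocyte list, 15 of 28 measured genes were called higher at 9 weeks and 2 lower.

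Nmur1 rose by 1.74 (SE 0.27, adjusted p 7.54e-05), the protease Prss30 by 1.56 (SE 0.56, adjusted p 0.0327) and H2-T18, a nonclassical major histocompatibility molecule, by 1.04 (SE 0.21, adjusted p 0.00067). Thbd, the endothelial anticoagulant receptor thrombomodulin, rose by 1.22 (SE 0.23, adjusted p 0.000391) and in probe set 104601_at by 1.58 (SE 0.26, adjusted p 9.77e-05).

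The genes that fell included follicle genes. Lgr5 went from 149.4, 187.6 and 188.4 units on day 6 to 41.3, 32.7 and 32.7 at 9 weeks, and fell by 2.30 on the log2 scale (SE 0.52, adjusted p 0.00185). Bmpr1a fell by 0.87 (SE 0.25, adjusted p 0.0102), Slain1 by 1.36 (SE 0.31, adjusted p 0.0019) and Cyp4a12b by 1.40 (SE 0.32, adjusted p 0.00184). H1f10 fell by 2.52 (SE 0.48, adjusted p 0.000402), Cd4 by 1.54 (SE 0.48, adjusted p 0.0155) and Olfr15, an odorant receptor listed at the floor on all 9 week mice, by at least 1.76 (adjusted p 0.0203). With the floor at 127.8 units the changes were 0.25 for Nmur1, -0.45 for Lgr5, -0.72 for Cd4 and -0.11 for Olfr15, all short of the threshold. Every Slain1 value of day 6 and 9 weeks lay below 127.8 units, so that floor left no change. Slain1 and Nmur1 were above 127.8 units on 3 or more arrays, as the tests required, only with their day 17 arrays counted. Without day 6 mouse 1 the counts were 9 lower and 5 higher, and without day 6 mouse 3 there were 10 lower.

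Among the adult ages few members changed. From 9 weeks to 5 months 3 members (2.8%) were called higher and 1 lower (0.9%), near the 2.37% and 1.94% of all probe sets, and the members' median was 0.33 beside 0.03. Rbfox2, a splicing factor, rose by 1.18 (SE 0.28, adjusted p 0.046), the noncoding RNA Tug1 by 1.08 (SE 0.26, adjusted p 0.048), and Ift88, needed to build primary cilia, by 1.06 (SE 0.18, adjusted p 0.0231). Nmur1 fell by 1.86 (SE 0.33, adjusted p 0.0255), from 180.9, 152.1 and 121.9 units to 38, 33.2 and 55.8, which are near the floor. With the floor at 127.8 units this change was -0.25 and its call was lost, as was that of Rbfox2 at 1.18. The second probe sets of Tug1 and Ift88 gave 0.38 and 0.42, both short of the threshold (adjusted p 0.225 and 0.335). None of the 4 calls stood alone against loss of a mouse. With limma 0 members were called in either direction without 9 weeks mouse 1 or 2 or without any 1 of the 5 month mice. With all mice, 15 of 109 members had an unadjusted limma p under 0.05, beside 21.9% of all probe sets.

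From 5 months to 1 year 7 members (6.4%) were called lower and 1 higher (0.9%), against 8.75% and 5.75% of all probe sets. The members' median was -0.46 beside -0.07. Xist was at the floor and Eif2s3y above it on all 4 1-year arrays, whereas Xist was at 892 and 861.2 units on 5 months mice 1 and 3 and Eif2s3y at 293.1 on mouse 2, so age and sex cannot be fully told apart here. Tubb2a fell by 2.18 (SE 0.57, adjusted p 0.0311), Ighm by 1.79 (SE 0.53, adjusted p 0.0482) and Srgn, the proteoglycan of secretory granules in blood cells, by 1.46 (SE 0.43, adjusted p 0.0486). Ift88 fell by 0.91 (SE 0.17, adjusted p 0.00913), Gkap1 and Csf3r by 0.90 each, and Polr2a by 0.70, while Maz rose by 1.43 (SE 0.4, adjusted p 0.04). None of 7 other probe sets of these genes was called lower, and 103054_at of Polr2a was called higher, by 0.67 (SE 0.12, adjusted p 0.00899). With the floor at 127.8 units the changes were -0.93 for Tubb2a, -0.47 for Ighm and 0.34 for Maz, all short of the threshold, and -0.37 for Srgn, still past it. The 7 decreases became 0 without 5 months mouse 1, 1 without 5 months mouse 3 or 1 year mouse 4, and 4 without 1 year mouse 2. The increase of Maz was lost without any 1 of the 5 month mice and without 1 year mouse 1, 2 or 3.

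Between 9 weeks and 1 year limma called 0 members in either direction and 0.147% of all probe sets. At an unadjusted p under 0.05 there were 10 of 109 members, beside 14% of all probe sets. Xist was at 284.3 and 732.1 units on 9 weeks mice 1 and 2 and Eif2s3y at 235.9 on mouse 3, so sex was mixed with age here too. Simulated log2 changes of 1 were recovered in 38% of cases upward and 30% downward in this comparison, so a change of this size could be missed.

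Adult mice differed in how much hair they made, and that order was compared with the members. The hair shaft score fell into separate ranges, 6.9 to 7.31 on 5 adult arrays and 11.53 to 13.6 on the other 5. In a fit of each probe set on this score with age as a factor, 1 member had a slope that passed the limma threshold, beside 1.57% of all probe sets. This was Fgf4, which fell by 0.20 on the log2 scale per log2 unit of the score (SE 0.03, adjusted p 0.0116). Its adult values were 567.2, 461.7 and 266.5 units at 9 weeks, 570.1, 360.6 and 511.9 at 5 months, and 510.3, 180.7, 173.5 and 239 at 1 year. Without 1 year mouse 1 no member passed, and without 1 year mouse 2 there were 2. Vamp1 and Slain1 had no adult array above 152.8 units. Their highest adult values, 116.1 and 152.8, came from 1 year mice with a high score. On 9 weeks mouse 3, 5 months mouse 2 and 1 year mouse 2, which also had a high score, Vamp1 was at the floor. Slain1 measured 49.1, 56.4 and 34.8 units on these mice, and the slope of neither gene passed the threshold.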

How the data were processed

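The authors deposited 1 summarised intensity per probe set and array on a linear scale, 12488 probe sets on 25 arrays. As the deposited values show, each array had been scaled, with a mean of 499.9 units after trimming 2% of probe sets at each end. The software, the scanner and any pooling of RNA were not given in the sources used here. Values were floored at the table's 20th percentile (32.7 units) and taken to log2. Tests covered the 8835 non-control probe sets that on 3 or more arrays were above 127.8 units, the 40th percentile, all 109 members among them. Symbols came from the platform annotation, with 10839 of them updated through the gene number in RefSeq's GRCm38.p6 table.

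The limma package (3.58.1, run in R 4.3.3) fitted linear models with an intensity-dependent prior variance, once for ages up to 9 weeks (18 arrays) and once for 9 weeks, 5 months and 1 year (10 arrays), and p-values were adjusted by Benjamini-Hochberg over all probe sets tested. The scripts were tested on simulated data. Precision is limited by how many arrays there are.

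The members, gene lists, comparisons and alternatives were chosen with earlier results of these data known. Genes are named from the 20 highest ratios of day 17 to the larger of the day 14 and day 23 means, up to 4 members of each list, up to 5 called changes in each direction with groups that did not overlap, the 5 members most and the 5 least above the other ages, 3 probe sets on each side of each threshold, and the 3 widest spreads. A gene outside this rule, such as Eda, Polr2a, Itgav or Plg, and the groups by role, were chosen after their values were seen.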

Additional observations from a re-analysis of the deposited data

Results flagged for a closer look

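At 1 year, the age with 4 mice, 8 of 57 named members had 1 mouse far from the other 3, where chance flags about 1 in 20 groups of this size by the same rule (the gap to the nearest mouse against the whole range). In 6 of the 8 the other 3 mice were at the floor or within 2 units of it, so that rate does not apply to those. In 5 of the 8 the mouse that stood apart was mouse 3, and it was the highest each time. Its value was 82.4 units for Pax5, 111 for Rps4x, 173.6 for Zxda, 48 for Bphl and 54.6 for Ctrl, and the other 3 mice lay between the floor of 32.7 and 34.2 units. Mouse 1 was the highest for Foxc2 (162016_f_at), at 41.3 units with the other 3 at the floor. Mouse 1 was the lowest for Cyp27b1, which makes active vitamin D, at 34.5 units beside 107.2 to 123.3, and for Smarcd2, a chromatin remodelling subunit, at 285.3 units beside 428.4 to 453.2. The hair shaft score of 1 year mouse 3 was the highest of the adult arrays, at 13.6, and that of mouse 1 the lowest, at 6.9. What sets these mice apart was not tested.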

How the results depend on the processing

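The number of members depended on the scaling and the thresholds. It was 69 after quantile normalization, 47 with arrays scaled to 1 median, 68 with the floor at the 40th percentile, 45 with a day 17 mean of at least 400 units and 62 with day 17 at least 2 times both other means, and it ran from 101 to 140 with 1 array left out. For day 6 against day 1, 30 members were lower after quantile normalization, and 1 was higher with the floor at the 40th percentile, with a filter on 6 arrays or with all 25 arrays in 1 fit. With 1 array left out, 2 were higher in each fit and 35 to 45 lower. For 9 weeks against day 6, 5 were higher and 10 lower with the floor at the 40th percentile. Over all probe sets 1525 were higher and 1944 lower with that floor, beside 1606 and 2047 in the main fit. With 1 array left out, 5 to 12 members were higher and 9 to 20 lower.

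For 5 months against 9 weeks, the count higher was 1 with centred arrays, 1 without a filter, 6 with array weights and 8 with all 25 arrays in 1 fit. Over all probe sets the counts higher in these settings were 116, 149, 751 and 897, beside 209 in the main fit. The count lower was 0 with the floor at the 40th percentile or the filter on 6 arrays and 4 with array weights or all 25 arrays. Over all probe sets the counts lower in these settings were 211, 161, 588 and 620, beside 171 in the main fit. With 1 array left out, 0 to 2 were higher and 0 to 1 lower. For 1 year against 5 months, 0 were higher with the floor at the 40th percentile or no filter. The count lower was 3 after quantile normalization, 2 with centred arrays, 1 without a filter, 20 with array weights and 23 with all 25 arrays in 1 fit. Over all probe sets the counts lower in these settings were 612, 476, 612, 1377 and 1536, beside 773 in the main fit. With 1 array left out, 0 to 1 members were higher and 0 to 7 lower. For 1 year against 9 weeks, 1 was lower with array weights and 2 with all 25 arrays, and 0 to 0 with 1 array left out. Over all probe sets 167 were lower with array weights and 378 with all 25 arrays, beside 13 in the main fit. For the hair shaft score, 0 to 2 had a negative slope and 0 a positive one with 1 array left out. The cause of these differences was not tested. Of 456 refits of 28 named changes, 356 stayed past the threshold, 100 did not, and 0 changed sign.

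With mouse number as a replicate block, 46 members were lower and 2 higher for day 6 against day 1, and 17 lower and 8 higher for 9 weeks against day 6, as without it. The block gave 0 higher and 0 lower for 5 months against 9 weeks, 1 higher and 0 lower for 1 year against 5 months, and 0 for the hair shaft score. Over all probe sets it gave 0 higher and 0 lower for 5 months against 9 weeks, beside 209 and 171 without it. For 1 year against 5 months it gave 147 higher and 241 lower, beside 508 and 773. For the score it gave 57 positive and 0 negative slopes, beside 123 and 16. Correlations of same-numbered mice ran from -0.352 to 0.388, so the numbers do not pair the mice. A signal of a few times the floor, as in many members, limits how small a difference can be seen.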

Other observations

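The 6 probe sets that met the thresholds but belonged to families left out of the set are given as values. Ucp1, the uncoupling protein of brown and beige fat, averaged 653.3 units on day 1, 238.2 on day 6, 517.9 on day 17 and 226 on day 23, and was at the floor in the mean of day 14 and of all 3 adult ages. Krtap6-3, a hair shaft protein, averaged 1426.5 units on day 6, 433.7 on day 14 and 2909.3 on day 17, and was at the floor on days 1 and 23. Mmp11, a stromal metalloprotease, averaged 94.1 units on day 14, 420.9 on day 17 and 107.8 on day 23. Krt17, a keratin of follicle epithelium, averaged 182.3, 442.7 and 280.4 units at these ages, Krt12 58.6, 248.7 and 127.5 units, and the cartilage collagen Col9a1 263.3, 753.9 and 485.4 units. Krt12 and Ucp1 had their highest mean on day 1, as did 24 members of the set.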
